A study of Mus musculus with 4 samples.

Results

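The proteasome genes described here were the 48 genes of 24873 listed whose symbols begin with Psm, continue with a letter from a to g and end in a number. They encode the subunits of the 20S core particle (Psma and Psmb), the cap that sits on it (Psmc and most Psmd), the alternative activators (Psme), the inhibitor PI31 (Psmf1) and chaperones that assemble the core (Psmg). The proteasome is the barrel-shaped protease that degrades ubiquitin-tagged proteins. Rings of alpha subunits gate the barrel, the inner rings of beta subunits hold the proteolytic sites, and the 19S cap binds ubiquitin chains, removes them and unfolds the substrate with a ring of ATPases. Under interferon signaling, cells replace the catalytic beta subunits with the immunosubunits Psmb8, Psmb9 and Psmb10, which change the peptides that are made for display on MHC class I molecules.

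The libraries were bulk RNA-Seq of brain cells from mice in which Mgp, a secreted inhibitor of bone morphogenetic proteins, could be deleted in endothelial cells (ECs). All mice, the controls included, carried Cdh5cre;Mgpflox/flox, called VE-cadherin cre/ERT2 Mgp fl/fl in the paper, in which the VE-cadherin promoter drives a Cre that tamoxifen activates. The 2 control libraries came from mice that received no tamoxifen, and the 2 tamoxifen libraries from mice injected with 75 mg/kg daily for 5 days. Mice of both groups were 10 weeks of age when the injections began. Cells were taken on day 9, and each library pooled 3 mice. The labels describe the cells as tdTomato+ brain cells and the paper as CD31+CD45- cerebral ECs. In the table the columns carry the letters C and A, and A was read as the arteriovenous malformation group, that is tamoxifen, a letter the labels do not use. Values are normalized counts, read counts that the authors divided by a factor for each library.

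Each library held between 35387438 and 49799321 reads on genes, and 3 reads corresponded to 2.16 to 4.11 normalized counts. A gene was tested where its mean reached 10 normalized counts, which 20485 genes did, with limma on log2(normalized count + 1) and Benjamini-Hochberg (BH) adjustment over all of them. A gene was called higher or lower at an adjusted p under 0.05. Under this rule after tamoxifen 33.4% of tested genes were higher and 25.5% were lower, and the median log2 fold change over all of them was 0.05. The p-values measure the spread between pooled libraries of which there were 2 per group. Mgp itself had 1094 and 1352 normalized counts in the controls and 945 and 909 after tamoxifen. The groups did not overlap, but its log2 fold change of -0.39 (SE 0.18, n = 2 per group) did not pass limma's test (BH-adjusted p = 0.0986), and with libraries brought to equal totals it was 0.08. All 16 endothelial markers fell, and their summed level went from 1554300 and 1536710 normalized counts in the control libraries to 257061 and 125552 in the tamoxifen libraries. All 12 neutrophil, 9 erythroid, 13 cycling, 12 pluripotency and 8 astrocyte markers rose, as did 10 of 12 leukocyte and macrophage markers and all 7 lymphocyte markers tested. In bulk libraries, fewer cells of a type and less RNA per cell cannot be told apart.

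Of the 48 proteasome genes, 47 were tested. After tamoxifen 8 rose, 5 fell and 34 were not called, which is 17.0% higher and 10.6% lower, both below the shares over all tested genes. The 5 that fell were the immunosubunits Psmb8, Psmb9 and Psmb10 and the activator subunits Psme1 and Psme2, all known as interferon-inducible. The 8 that rose were Psma5, Psmb7, Psmd7, Psmd12, Psmd14, Psmg1, Psme3 and Psme4. Among the 31 constitutive subunits of the core and cap together, 5 rose and 0 fell, with a median log2 fold change of 0.19. At an unadjusted p under 0.05, limma gave 9 higher and 1 lower of these 31, against 35.3% higher and 28.2% lower of all tested genes. edgeR and DESeq2 on whole reads recovered from the values made the same number of calls in every class, 8 higher and 5 lower in all. With the additional requirement of an absolute log2 fold change over 1, 3 genes remained, all lower (Psmb8, Psmb10 and Psme1), and 0 higher, whereas 28.6% of all tested genes were higher and 16.0% lower on that rule. The groups did not overlap for 21 genes on the higher side and 8 on the lower side, against 43.1% and 39.2% of all tested genes. These counts depended on single libraries. They were 4 higher and 5 lower without control replicate 1, 4 and 3 without control replicate 2, and 2 and 2 when either tamoxifen replicate was left out. Over 14 alternative fits, Psmb8, Psmb10, Psmd14 and Psme3 were called in each, Psme1 in 12, Psmg1 in 11, Psmd7 and Psme4 in 10, Psma5, Psmb7, Psmd12 and Psme2 in 9 and Psmb9 in 8.

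**Figure D1:**
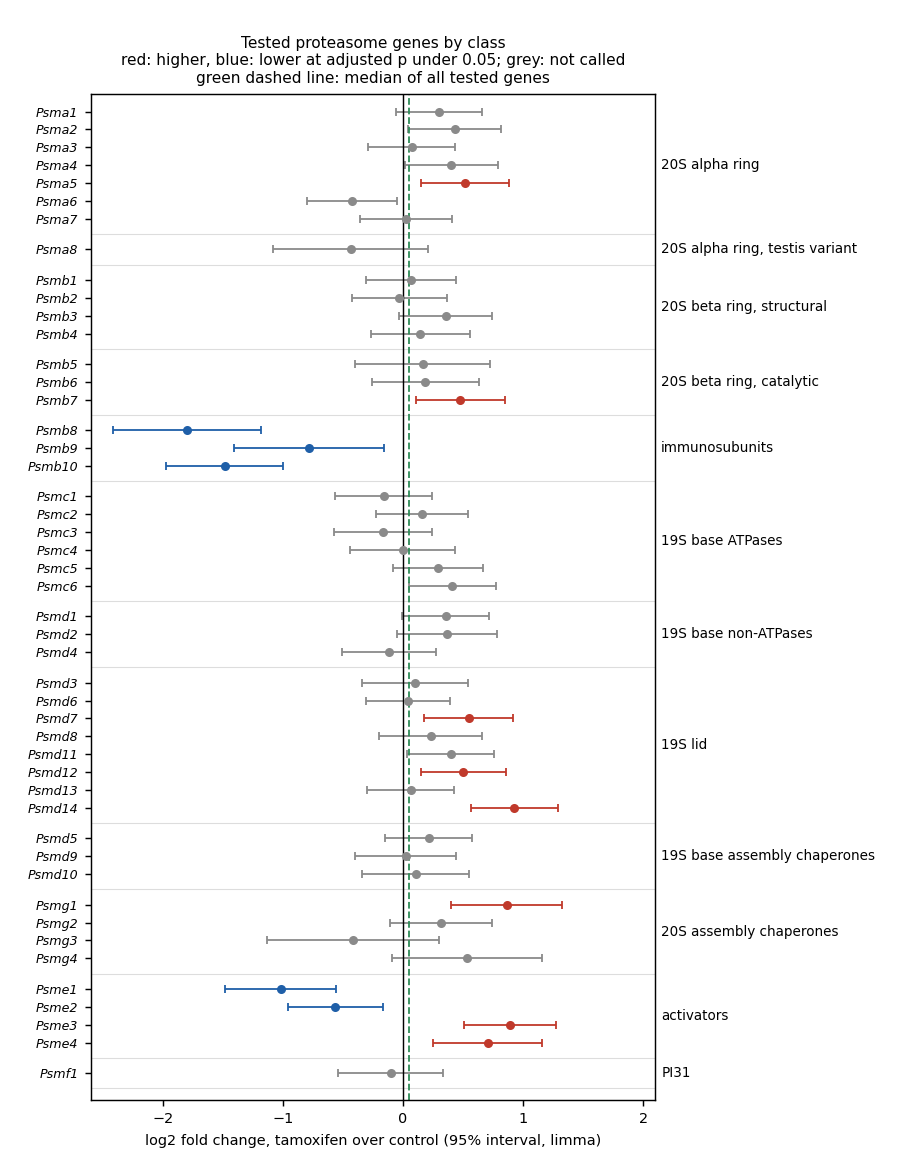
Log2 fold change, tamoxifen over control, of the 47 tested proteasome genes by class, with the 95% interval from limma (n = 2 libraries per group). The 3 immunosubunits and Psme1 and Psme2 lie left of 0, while 5 core and cap subunits are called, all to the right. The median of all tested genes is 0.05 (green dashed line).

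Part of the regulatory sequence of these genes is shown because the results separate the immunosubunits from the catalytic subunits they replace. Letters come from the RefSeq promoter table (GRCm38.p6) and were placed by exact match on GRCm39. Windows of 250 bases before the start were found for 40 of 48 proteasome genes (43 windows). Capitals mark matches to the core TTCNNNGAA of the gamma-activated site, an element of interferon-responsive promoters, or TGACNNNGC of the antioxidant response element, bound by cap'n'collar factors, a family that includes Nfe2l1. The lines give Psmb8 (29 bases on the + strand, chr17:34417062-34417090), Psmb10 (197 bases on the - strand, chr8:106665078-106665274), Psmb5 (221 bases on the - strand, chr14:54855482-54855702) and Psmb6 (250 bases on the + strand, chr11:70415933-70416182), each cut before the nearest annotated exon except Psmb8, whose stretch lies in an annotated exon of some transcripts.
Psmb8: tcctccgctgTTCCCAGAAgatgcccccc
Psmb10: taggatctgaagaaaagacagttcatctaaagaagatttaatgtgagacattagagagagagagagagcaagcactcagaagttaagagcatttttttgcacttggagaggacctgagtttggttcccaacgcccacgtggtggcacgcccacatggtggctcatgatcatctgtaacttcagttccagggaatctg
Psmb5: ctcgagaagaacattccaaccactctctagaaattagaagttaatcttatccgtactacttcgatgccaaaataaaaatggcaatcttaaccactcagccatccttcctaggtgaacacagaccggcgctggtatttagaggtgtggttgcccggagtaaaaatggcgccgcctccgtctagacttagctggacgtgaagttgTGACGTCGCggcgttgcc
Psmb6: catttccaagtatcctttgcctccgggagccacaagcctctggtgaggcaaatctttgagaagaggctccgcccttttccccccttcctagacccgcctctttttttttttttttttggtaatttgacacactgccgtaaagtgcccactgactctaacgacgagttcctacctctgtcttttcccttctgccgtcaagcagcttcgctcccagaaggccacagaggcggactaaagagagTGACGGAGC

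The gamma-activated core, searched on both strands, was in 2 of the 43 proteasome windows (Psmb8 and Psmg1) and in 7.02% of 32851 windows over all genes. The antioxidant core was in 5 of 43 (Psmb5, Psmb6, Psmc6, Psmd9 and Psmd12) and in 10.2% of all windows. The core of the interferon-stimulated response element, GAAA repeated after a gap of 2 bases, was in 3 of 43 (Psmb3, Psmd4 and Psmd9) and in 2.98% of all windows. Of the immunosubunits only Psmb8 held a match to any of these cores. Psmb9 is not shown because its window had 0 bases before an annotated exon and no match, and Psmb7 had no window. Such matches describe letters and not occupied sites.

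The immunosubunits all fell. Psmb8 (chr17:34416690-34420428, GRCm39), which takes the place of Psmb5 and its chymotrypsin-like activity, had 1099 and 1369 normalized counts in the controls and 441 and 279 after tamoxifen. Both tamoxifen libraries lay below both controls, and the gene fell by 1.80 on the log2 scale (SE 0.265, n = 2 per group, limma BH-adjusted p = 0.000785), the lowest log2 fold change of the 47. Psmb10 (chr8:106662362-106665077), the counterpart of Psmb7 and its trypsin-like activity, had 2241 and 2661 normalized counts in the controls and 1035 and 732 after tamoxifen. It fell by 1.49 on the log2 scale (SE 0.21, limma BH-adjusted p = 0.000633), again without overlap between the groups. Psmb9 (chr17:34400960-34406738), the counterpart of Psmb6, had 696 and 977 normalized counts in the controls and 580 and 395 after tamoxifen. Its change was smaller, a fall of 0.78 on the log2 scale (SE 0.268, limma BH-adjusted p = 0.0365), and the groups were separated only by the gap between 580 and 696. The call of Psmb9 was lost without control replicate 2 and without either tamoxifen replicate (log2 fold change -1.06 to -0.51 with 1 library left out), and when all libraries were brought to an equal total its log2 fold change was -0.31 (BH-adjusted p = 0.327). Psmb9 shares 743 bases with Tap1 on the opposite strand. The library kit keeps strand, but the strand setting of the counting is not given in the sources used here.

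None of the constitutive counterparts was called lower. Psmb5 had 537 and 696 normalized counts in the controls and 802 and 583 after tamoxifen, overlapping ranges with a log2 fold change of 0.16 (95% interval -0.40 to 0.72). Psmb6 had 3298 and 4428 against 4728 and 3993, also overlapping, with a log2 fold change of 0.19 (95% interval -0.26 to 0.63). Psmb7 had 1622 and 1780 against 2531 and 2206 and rose by 0.48 on the log2 scale (SE 0.16, limma BH-adjusted p = 0.0338), with both tamoxifen libraries above both controls. Psmb5 reads could be shared with near-identical copies, the longest being the processed pseudogene Gm3375 (99.0% identical over 795 bases), which had 596 to 812 normalized counts in these libraries and was not called (log2 fold change 0.17, limma BH-adjusted p = 0.505).

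Both genes of a pair were measured in the same library, so a single factor per library cancels from their ratio. The log2 ratio of Psmb8 to Psmb5 was 1.03 and 0.98 in the controls and -0.86 and -1.06 in the tamoxifen libraries, a ratio 0.256 times that of the controls. For Psmb10 to Psmb7 it was 0.47 and 0.58 against -1.29 and -1.59, or 0.257 times. For Psmb9 to Psmb6 it was -2.24 and -2.18 against -3.03 and -3.33, or 0.511 times. None of the ratios overlapped between groups, with a pooled SD within groups of 0.104 to 0.161 on the log2 scale. Quantile normalization, which is no single factor, changed the differences on the log2 scale from -0.97 to -1.89 for Psmb9 to Psmb6, from -1.96 to -2.17 for Psmb10 to Psmb7 and from -1.96 to -2.06 for Psmb8 to Psmb5. The exact two-sided permutation test gave p = 0.333 for each, the smallest p that 2 against 2 libraries allow.

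The pairs can also be set side by side per kilobase of the canonical transcript, a scale that other transcript lengths would move. On that scale Psmb8 made up 66.7 ± 0.61% (SD, n = 2) of the Psmb8 and Psmb5 level in the controls and 33.9 ± 2.21% after tamoxifen. Psmb10 went from 56.0 ± 1.37% to 24.6 ± 2.74% of its pair, and Psmb9 from 14.2 ± 0.39% to 7.82 ± 1.09%. Psmb10 was the larger member of its pair in both controls and the smaller after tamoxifen, and Psmb9 was the smaller in all 4 libraries. For Psmb8 the order in the controls depended on the copy of Psmb5. With the reads of Gm3375 added to Psmb5, a calculation chosen after seeing the data, the Psmb8 share was 49.2% and 48.0% in the controls and 21.5% and 17.4% after tamoxifen, and the difference in the log2 ratio was -1.97. Summed over the 3 pairs, counts of immunosubunits were 0.739 and 0.725 times those of the constitutive catalytic subunits in the controls and 0.255 and 0.207 times in the tamoxifen libraries.

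**Figure D2:**
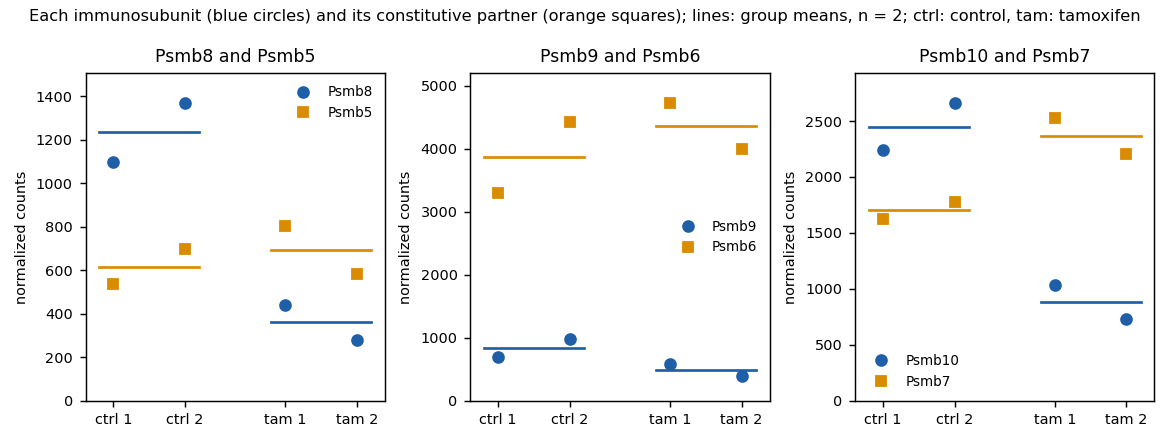
Normalized counts of each immunosubunit (blue circles) and the constitutive subunit it replaces (orange squares) in every library, with group means as lines (n = 2). Psmb8 and Psmb10 lay above their partners in both control libraries and below them in both tamoxifen libraries, while Psmb9 lay below Psmb6 in all 4. Psmb5 is drawn as listed, without the reads of Gm3375.

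The activators split by kind. Psme1 and Psme2 encode the alpha and beta subunits of PA28, the ring that caps the core in place of the 19S complex and is known for its part in antigen processing. Psme1 (chr14:55815190-55822034) had 5427 and 7227 normalized counts in the controls and 3470 and 2756 after tamoxifen, without overlap, and fell by 1.02 on the log2 scale (SE 0.199, limma BH-adjusted p = 0.00321). Its neighbor Psme2 (chr14:55824895-55829173), 2860 bases away on the opposite strand, had 2615 and 3083 against 2098 and 1757 and fell by 0.56 (SE 0.171, limma BH-adjusted p = 0.0228). Psme1 was not called without either tamoxifen replicate (log2 fold change -1.22 to -0.81 with 1 library left out). Psme2 was not called under equal totals, where its log2 fold change was -0.09 (BH-adjusted p = 0.613). Psme2b, a gene whose transcript is 99.4% identical to Psme2 over 795 bases, had 457 and 411 normalized counts against 228 and 175 and fell by 1.11 (limma BH-adjusted p = 0.00943), and reads of these 2 genes may be shared.

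The other activators moved the opposite way. Psme3 (chr11:101206777-101215813) encodes PA28 gamma, a nuclear ring related to PA28 that degrades proteins without ubiquitin, and had 3872 and 4148 normalized counts in the controls and 8131 and 6786 after tamoxifen. It rose by 0.89 on the log2 scale (SE 0.164, limma BH-adjusted p = 0.00239), with both tamoxifen libraries above both controls. Psme4 (chr11:30721725-30830376), which encodes the large activator PA200 known from chromatin and the testis, had 5252 and 3916 against 8050 and 6778 and rose by 0.70 (SE 0.194, limma BH-adjusted p = 0.0156). The ratio of Psme1 to Psme3 counts was 1.40 and 1.74 in the controls and 0.427 and 0.406 after tamoxifen, and that of Psme2 to Psme3 was 0.675 and 0.743 against 0.258 and 0.259. Psmf1, whose product PI31 binds the core and inhibits it in vitro, had 1618 and 2054 normalized counts in the controls and 1862 and 1544 after tamoxifen, overlapping ranges with a log2 fold change of -0.10 (95% interval -0.54 to 0.33).

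**Figure D3:**
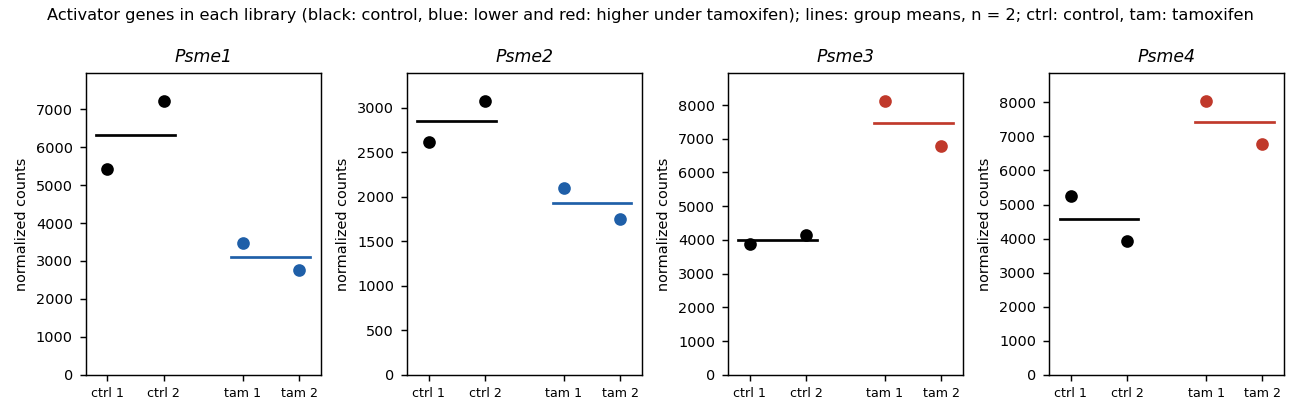
Normalized counts of the 4 activator genes in each library, with group means as lines (n = 2). Psme1 and Psme2 lay lower and Psme3 and Psme4 higher in both tamoxifen libraries than in both controls.

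In the 20S core, the 7 somatic alpha subunits, which form the gated outer rings, had a median log2 fold change of 0.30. Of these 1 was called higher, or 14.3% against 33.4% of all tested genes. That was Psma5, the highest of the ring, with 1475 and 1567 normalized counts in the controls and 2315 and 2049 after tamoxifen, a rise of 0.52 on the log2 scale (SE 0.157, limma BH-adjusted p = 0.0229). The lowest was Psma6, with 5906 and 6073 normalized counts against 4876 and 4066. Its groups did not overlap, yet its log2 fold change of -0.43 (95% interval -0.80 to -0.05, BH-adjusted p = 0.0517) missed the threshold, which it passed with a pseudocount of 5 and with a filter at a mean of 100. The 4 beta subunits without a proteolytic site, Psmb1 to Psmb4, ran from -0.03 in Psmb2 to 0.35 in Psmb3 on the log2 scale, and none was called or had an unadjusted p under 0.05 in limma. Psmb2 had 2841 and 3411 normalized counts in the controls and 3312 and 2801 after tamoxifen, and Psmb3 had 2085 and 2568 against 3047 and 2871. Psmb2 overlapped between the groups and Psmb3 did not.

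Variants of the core that belong to other tissues were also listed. Psma8, the alpha subunit of the testis, had 316 and 318 normalized counts in the controls and 267 and 206 after tamoxifen, lower without overlap but not called (log2 fold change -0.44, 95% interval -1.08 to 0.21). Under quantile normalization Psma8 was at -1.47 and called lower (limma BH-adjusted p = 0.00533), and under equal totals it was at 0.03, not called. Psmb11, the subunit of the thymus cortex, had 0 reads in both control libraries, which allows up to 4.11 and 3.75 normalized counts, and 3.25 and 17.3 normalized counts in the tamoxifen libraries. It was left out by the filter on low values and passed the test only in the fit with no filter.

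In the base of the 19S cap, the 6 ATPases of the unfolding ring had a median log2 fold change of 0.08, and none was called in limma, with 1 at an unadjusted p under 0.05. The lowest was Psmc3, with 6740 and 8322 normalized counts in the controls and 7089 and 6283 after tamoxifen, and a log2 fold change of -0.17 (95% interval -0.58 to 0.24). The highest was Psmc6, with 3239 and 2960 against 4394 and 3842, groups that did not overlap, and a log2 fold change of 0.41 (95% interval 0.05 to 0.77, BH-adjusted p = 0.0537). The 3 other base subunits were not called either, with 0 at an unadjusted p under 0.05. They ran from Psmd4, a receptor for ubiquitin chains, at -0.12 on the log2 scale (4417 and 5344 normalized counts against 4774 and 4208) to the scaffold subunit Psmd2 at 0.37 (7923 and 9254 against 11897 and 10255).

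Of the 8 subunits of the lid, 3 rose and 0 fell in limma, and 4 were higher and 0 lower at an unadjusted p under 0.05. The called share was 37.5%, near the 33.4% of all tested genes that were higher. Their median log2 fold change was 0.31. Psmd14, the metalloprotease that cuts ubiquitin chains off the substrate, had 1703 and 1776 normalized counts in the controls and 3554 and 3080 after tamoxifen. It rose by 0.93 on the log2 scale (SE 0.155, limma BH-adjusted p = 0.0015), the highest value of the 47, and its groups did not overlap. Its inactive partner in the lid, Psmd7, rose by 0.55 (SE 0.16, BH-adjusted p = 0.02) and Psmd12 by 0.50 (SE 0.152, BH-adjusted p = 0.0228) in limma. The lowest lid gene was Psmd6, with 3042 and 3269 normalized counts against 3397 and 3100 and a log2 fold change of 0.04 (95% interval -0.31 to 0.39). Within libraries, summed lid counts were 1.05 and 0.998 times the summed ATPase counts in the controls and 1.26 and 1.22 times in the tamoxifen libraries.

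The cap and the core were also compared as sums. Summed counts of the 17 cap genes were 1.80 and 1.83 times those of the 14 constitutive core genes in the controls and 1.89 and 1.89 times after tamoxifen. For the 31 genes together, limma's SE ran from 0.15 to 0.24 and the 95% intervals from -0.80 to 1.29 on the log2 scale. The interval of 1 gene, Psmd14, reached above 1, and 0 intervals reached below -1. The median of these 31 genes rested on single libraries. It was 0.06 without control replicate 1, where the median of all genes was 0.09, and 0.06 without tamoxifen replicate 1, and it was 0.34 and 0.36 without control replicate 2 and tamoxifen replicate 2. As a share of each library, all 48 genes made up 0.282% and 0.323% of counts in the controls and 0.481% and 0.447% in the tamoxifen libraries. The 31 constitutive genes made up 0.226% and 0.262% against 0.395% and 0.369%, and the immunosubunits 0.00786% and 0.00975% against 0.00536% and 0.00393%. The tamoxifen libraries held 0.722 times the normalized counts of the control libraries in all, so a gene with an unchanged normalized count takes a larger share of them.

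The scaling of the libraries set the size and often the call of the constitutive genes. When all libraries were brought to an equal total, the median of all tested genes moved from 0.05 to 0.52, the split over all tested genes went from 33.4% higher and 25.5% lower to 44.3% and 14.0%, and the constitutive median became 0.66, which is 0.14 above the median of all genes in place of 0.13. Under quantile normalization the median of all genes was -0.20 and that of the constitutive genes 0.51. The members called were then 34 higher and 3 lower under equal totals and 22 higher and 7 lower under quantile normalization. Under equal totals 9 members below 0 as deposited were above it, Psma6, Psma8 and Psmg3 at 0.03 to 0.05 and Psmb2, Psmc1, Psmc3, Psmc4, Psmd4 and Psmf1 at 0.30 to 0.47. Under quantile normalization 5 of these, Psmb2, Psmc1, Psmc3, Psmc4 and Psmd4, were above 0 as well, at 0.16 to 0.38. In the other direction 5 members above 0 as deposited, Psmb5, Psmd9, Psmd10, Psmg2 and Psmg4, were at -0.39, -0.15, -0.40, -0.08 and -0.49 under quantile normalization. The immunosubunits had a negative median under each scaling, -1.49 as deposited, -1.65 with quantile normalization and -1.02 with equal totals.

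**Figure D4:**
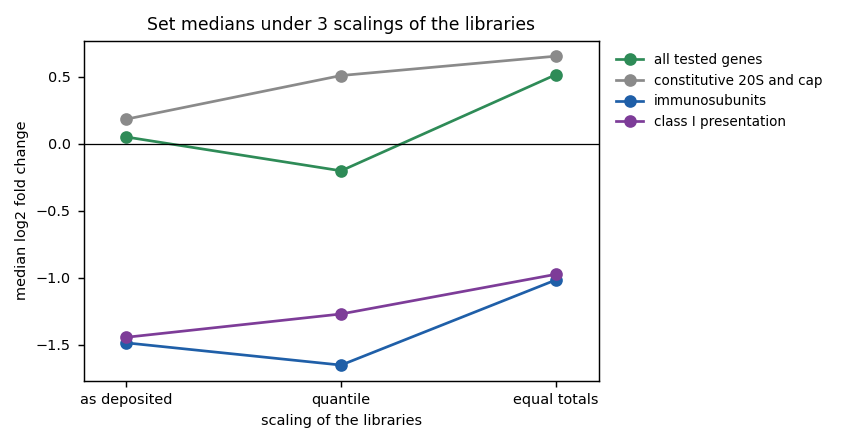
Median log2 fold change of all tested genes, the 31 constitutive core and cap genes, the 3 immunosubunits and the 16 class I presentation genes under 3 scalings of the libraries. The constitutive genes lie above 0 under each scaling while the median of all genes runs from -0.20 to 0.52, and the immunosubunits and class I genes lie below 0 throughout.

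Among the assembly chaperones, 1 of 7 was called, on the higher side. That is 14.3%, below the 33.4% of all tested genes that were higher. Psmg1 (chr16:95778481-95792202), which pairs with Psmg2 to build the alpha ring, had 444 and 528 normalized counts in the controls and 901 and 863 after tamoxifen. It rose by 0.86 on the log2 scale (SE 0.199, limma BH-adjusted p = 0.00714), but under quantile normalization the value was 0.38 and not called. Its partner Psmg2 had 683 and 721 against 921 and 829, higher without overlap and not called (log2 fold change 0.32, 95% interval -0.11 to 0.74). The second pair that acts on the alpha ring went apart in the values as deposited, without either being called. Psmg3 had 247 and 228 normalized counts against 201 and 156 (log2 fold change -0.42, 95% interval -1.14 to 0.30), and Psmg4 had 231 and 297 against 411 and 352 (0.53, 95% interval -0.09 to 1.16). Neither of these genes overlapped between groups, and the SE was 0.308 for Psmg3 and 0.269 for Psmg4, above those of most other members. Their opposite directions depended on the scaling. Under quantile normalization both were negative, Psmg3 at -1.52 and called lower (limma BH-adjusted p = 0.00615) and Psmg4 at -0.49, not called. Under equal totals both were positive, Psmg3 at 0.05, not called, and Psmg4 at 1.00 and called higher (limma BH-adjusted p = 0.014).

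The chaperones that build the ATPase ring were not called, and 0 of 3 had an unadjusted p under 0.05 in limma. Psmd5 had 2255 and 2209 normalized counts in the controls and 2773 and 2409 after tamoxifen (log2 fold change 0.21, 95% interval -0.15 to 0.57). Psmd9 had 1078 and 1335 against 1281 and 1160 (0.02, 95% interval -0.40 to 0.44), and Psmd10, also known as gankyrin, had 604 and 682 against 696 and 686 (0.11, 95% interval -0.34 to 0.55). Psmd9 overlapped between groups, and Psmd5 and Psmd10 did not. Relative to the core, summed counts of the Psmg genes were 0.0387 and 0.0373 times those of the 14 constitutive core genes in the controls and 0.0465 and 0.048 times in the tamoxifen libraries.

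Genes that work with the proteasome but carry other symbols were taken from lists of 16 names each. Of 15 other proteasome genes listed, 2 rose and 5 fell, with a median log2 fold change of -0.23. That is 13.3% higher and 33.3% lower, against 33.4% and 25.5% of all tested genes. Pomp, the chaperone that completes the core and is needed for immunosubunits to be built in, had 6808 and 7436 normalized counts in the controls and 4566 and 3644 after tamoxifen. It fell by 0.80 on the log2 scale (SE 0.172, limma BH-adjusted p = 0.00508), and its counts relative to the constitutive core genes were 0.164 and 0.157 in the controls and 0.0872 and 0.0796 after tamoxifen. Under equal totals it was at -0.33 and not called.

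The ubiquitin proteases of the cap rose. Usp14, which trims ubiquitin chains on the cap, had 1409 and 1130 normalized counts in the controls and 3640 and 3021 after tamoxifen and rose by 1.39 on the log2 scale (SE 0.182, limma BH-adjusted p = 0.000434). Uchl5, which sits on the base through Adrm1, rose by 0.90 (SE 0.188, BH-adjusted p = 0.00447), as Psmd14, the third such protease, did above. The third highest value of the list was Txnl1, not called (0.25 on the log2 scale).

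Nfe2l1 is the transcription factor through which cells with too little proteasome activity raise transcription of its subunits. It had 14232 and 16417 normalized counts in the controls and 11058 and 8332 after tamoxifen and fell by 0.67 on the log2 scale (SE 0.204, limma BH-adjusted p = 0.0231). Ngly1, which removes its sugars, fell by 0.93 (SE 0.156, BH-adjusted p = 0.00146), and Ddi2, the protease that cuts it, fell by 0.91 (SE 0.166, BH-adjusted p = 0.00236). Under equal totals these 3 were at -0.20, -0.46 and -0.44, and Nfe2l1 was then not called. Under quantile normalization Nfe2l1 was at -0.07 and not called, while Ngly1 and Ddi2 were at -1.06 and -0.51, both called lower. Vcp, which draws Nfe2l1 out of the membrane, was at 0.16 on the log2 scale and not called.

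Among 16 genes of ubiquitin and its delivery, 5 rose and 2 fell, with a median log2 fold change of 0.26. The share that rose was near the 33.4% of all tested genes, of which 25.5% fell. The highest were Rps27a, a fusion of ubiquitin with a ribosomal protein (1.08, BH-adjusted p = 0.00158), the shuttle Ubqln4 (0.85, BH-adjusted p = 0.00225) and the activating enzyme Uba6 (0.81, BH-adjusted p = 0.0143), all in limma. Ufd1, a partner of the segregase Vcp, fell by 0.55 on the log2 scale (BH-adjusted p = 0.0163 in limma), and the polyubiquitin gene Ubb was at -0.39 (BH-adjusted p = 0.0988, not called).

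The class I presentation list fell as a group beside the immunosubunits. Of 16 genes 13 fell and 1 rose, with a median log2 fold change of -1.45. That is 81.25% lower and 6.25% higher, against 25.5% and 33.4% of all tested genes. All 13 fell by more than 1, a rule on which 16.0% of all tested genes were lower. Under equal totals 12 fell and 1 rose, and under quantile normalization 11 fell and 3 rose. Tap1, the peptide transporter that lies 490 bases from Psmb8 on chromosome 17, had 3491 and 3688 normalized counts in the controls and 1782 and 1218 after tamoxifen and fell by 1.28 on the log2 scale (SE 0.203, limma BH-adjusted p = 0.00114). The transcription factors Irf9 and Stat2, which act together in interferon responses, were at -2.28 and -1.95 on the log2 scale (BH-adjusted p = 9.31e-05 and 0.000107 in limma), and Irf1 fell by 1.40 (BH-adjusted p = 0.00165). Canx, a chaperone that class I shares with other glycoproteins, rose by 0.72 (BH-adjusted p = 0.0155), and the chaperones Calr and Pdia3 were not called (-0.12 and -0.05). The list was chosen with results of these data known, so its direction is no independent evidence.

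**Figure D5:**
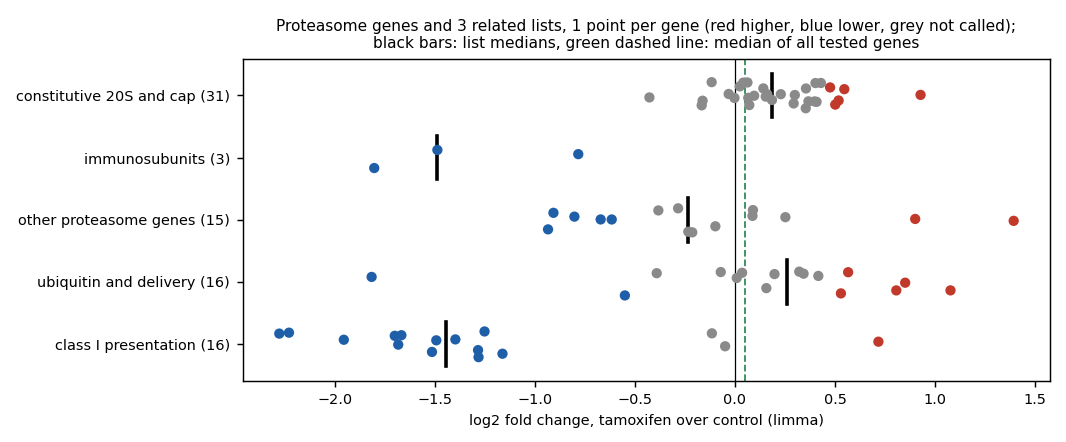
Log2 fold change, tamoxifen over control, of each gene in 5 groups, the 31 constitutive core and cap genes, the 3 immunosubunits and the lists of 15, 16 and 16 related genes (red higher, blue lower, grey not called, vertical spread for legibility). The medians are -1.49 for the immunosubunits, -1.45 for the class I presentation genes, which run from -2.28 to 0.72, and 0.19 for the constitutive genes. The class I list was chosen with results of these data known, so its median is no independent evidence.

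The falls of the immunosubunits, Psme1, Psme2 and the class I genes were found in libraries where the endothelial marker list had a median log2 fold change of -2.94 and the neutrophil list of 8.36. The leukocyte and macrophage markers summed to 1675 and 3058 normalized counts in the controls and 18477 and 14142 after tamoxifen. The cycling markers summed to 3852 and 4646 against 118061 and 109928, and the pluripotency markers to 111 and 183 against 62292 and 48255. These lists differed between the same groups that every comparison above rests on. Their part in the results cannot be told apart from that of tamoxifen and was not tested.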

How the data were processed

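RNA-Seq of 2 control and 2 tamoxifen libraries was analysed. Per the labels and the paper, stranded mRNA libraries were aligned with STAR 2.7.10a to GRCm39, counted, filtered for low counts and normalized with DESeq2 1.36.0, and the annotation release and strand setting are not given in the sources used here. What the authors deposited is a signal for each gene, namely counts of reads divided by a factor per library, so fold changes inherit that scaling. Dividing each column by its smallest step gave back whole reads (100% of values within 0.01 of a whole read), which were used in edgeR 4.0.16 and DESeq2 1.42.0 as alternatives. 0 columns were unmapped. Genes were tested with limma 3.58.1 under R 4.3.3 (eBayes with trend, two-sided, pseudocount 1, mean of at least 10), checked on simulated counts. The pseudocount understates changes of low genes. Floors of 3 reads cover counting error only. Pair ratios were compared with an exact permutation test.

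The members, classes and lists were chosen with earlier results of these data known, and the motifs after the values had been seen. Values in each library were given for immunosubunits, their partners, activators, Psmf1, chaperones, Psma8 and Psmb11, for the highest and lowest of each other class, and by log2 fold change for the 3 highest and 3 lowest of each list with Pomp, Nfe2l1, Tap1 and Irf1. Some genes of these lists are counted but their values are not reported here. Called members outside that rule and Vcp were also named. Genes were located with GENCODE M39, and copies (at least 97% over 100 bases) were found with BLAST 2.17.0. Alternatives were other pseudocounts, filters, scalings and tools, the replicate number as a block, a size cut-off and each library left out.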

Additional observations from a re-analysis of the deposited data

How the results depend on the processing

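With 2 libraries per group, the calls of most proteasome genes depended on choices. Without the mean-variance trend 3 members were higher and 3 lower, in place of 8 and 5, with quantile normalization 22 were higher, with equal totals 34 were higher and 3 lower, and with an added absolute log2 fold change over 1 the counts were 0 and 3. Leaving out a library gave 2 to 4 higher and 2 to 5 lower. The other pathway genes, 8 higher and 20 lower, had 5 higher without the trend, 16 with quantile normalization, 18 with equal totals and 2 with the size cut-off, and leaving out a library gave 3 to 6 higher and 10 to 19 lower. A lone library was then assumed to vary like the rest. edgeR and DESeq2 on recovered reads each called 8 members higher and 5 lower, and the pseudocounts and filters gave 8 to 11 higher and 4 to 6 lower. The 13 called members kept their sign in all 14 alternative fits. Of the members not called, Psmb2 turned to 0.44 and was called higher (BH-adjusted p = 0.0413 in limma) under equal totals. Psma8 and Psmg3, also not called as deposited, were called lower under quantile normalization, at -1.47 and -1.52. Mgp was at -0.65 and called lower under quantile normalization, and at 0.08, not called, under equal totals. The log2 ratio difference became -1.89 for Psmb9 to Psmb6 and -2.17 for Psmb10 to Psmb7 under quantile normalization, and the difference in the summed share was 0.122 percentage points in place of 0.161. The causes were not tested.

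The replicate number as a block gave 8 members higher and 5 lower, and 8 and 20 of the other genes, as without it. Same-numbered libraries of the groups did not deviate together (correlation 0.0251 over 20485 genes, 2 pairs). With so few libraries this cannot show whether same-numbered libraries shared a batch.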
